A study of Mus musculus with 24 samples.

Results

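Mitochondrial ribosomal protein genes are the nuclear genes whose proteins, with a small and a large ribosomal RNA, build the ribosome inside mitochondria. They were taken from the gene table of a mouse liver study as every row of biotype protein_coding whose name starts with Mrpl or Mrps and a digit. That gave 77 of 37583 genes, 30 with a small subunit name (Mrps) and 47 with a large subunit name (Mrpl), on 17 chromosomes. The livers came from mice labelled C57BL6/CBA and killed at 8.5 months of age, while the husbandry text names the C57Bl6 line only. The 4 groups of 3 RNA libraries were Smyd3 knockout mice given diethylnitrosamine (DEN_KO), wild type mice given diethylnitrosamine (DEN_WT), untreated knockout mice (KO) and untreated wild type mice (WT). Diethylnitrosamine (DEN), a liver toxicant used in rodents to bring on hepatocellular carcinoma late in life, was injected once into the abdomen at 25 mg/kg. The knockout is a gene-trap cassette in the fifth intron of Smyd3, carried in all tissues, so the exons before the cassette can still be transcribed. The labels number the 3 replicates of each group, which are taken here as separate mice. They do not say whether tumour or other liver was taken.

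Mitochondrial ribosomes translate the few proteins that the mitochondrial genome encodes, which are membrane subunits of the respiratory chain and of ATP synthase. Every protein of these ribosomes is encoded in the nucleus, made in the cytosol and imported. Part of them descend from bacterial ribosomal proteins, and the rest were added in mitochondria. Factors known to act at promoters of nuclear genes for mitochondrial proteins include NRF1, the ETS factor GABPA and YY1. In liver, hepatocytes are rich in mitochondria. In a bulk sample, fewer cells of a type and less RNA per cell cannot be told apart. The name rule leaves out ribosomal proteins whose genes carry other names, such as Dap3.

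Promoter sequences are shown for the 3 members with the largest difference between DEN_KO and DEN_WT (Mrpl30, Mrpl14 and Mrpl34), for Mrps26, which holds matches to 2 of the motifs, for Mrps12, named in the comparison of DEN_WT with WT, and for Mrpl50, a member that fell in DEN_KO. Each stretch runs 5′ to 3′ on the gene's strand from 220 bases before to 30 bases after the first start that RefSeq lists, 250 bases in all, in build GRCm38.p6. Capitals mark matches, on either strand, to NRF1 (GCGCA and GCGC with any base between), ETS (CCGGAAG) or YY1 (AAGATGGC). The stretches are Mrpl14 at chr17:45686129-45686378 on the plus strand, Mrpl30 at chr1:37890257-37890506 on the plus strand, Mrpl34 at chr8:71464706-71464955 on the plus strand, Mrps26 at chr2:130563537-130563786 on the plus strand, Mrps12 at chr7:28741792-28742041 on the minus strand and Mrpl50 at chr4:49521054-49521303 on the minus strand.
Mrpl14: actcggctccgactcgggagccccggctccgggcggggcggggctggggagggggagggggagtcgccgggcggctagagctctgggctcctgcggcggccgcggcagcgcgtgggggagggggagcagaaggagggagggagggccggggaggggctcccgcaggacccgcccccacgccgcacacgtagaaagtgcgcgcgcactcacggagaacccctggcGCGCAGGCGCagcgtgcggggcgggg
Mrpl30: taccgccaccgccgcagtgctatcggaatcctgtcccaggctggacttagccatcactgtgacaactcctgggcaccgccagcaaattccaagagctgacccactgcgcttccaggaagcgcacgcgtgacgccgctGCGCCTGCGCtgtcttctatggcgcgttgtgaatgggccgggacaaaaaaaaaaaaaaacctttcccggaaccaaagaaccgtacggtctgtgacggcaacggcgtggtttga
Mrpl34: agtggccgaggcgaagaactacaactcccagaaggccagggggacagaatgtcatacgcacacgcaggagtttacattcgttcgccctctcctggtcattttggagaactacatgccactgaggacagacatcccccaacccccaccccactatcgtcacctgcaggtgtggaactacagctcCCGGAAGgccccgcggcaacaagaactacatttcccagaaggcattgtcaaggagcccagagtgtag
Mrps26: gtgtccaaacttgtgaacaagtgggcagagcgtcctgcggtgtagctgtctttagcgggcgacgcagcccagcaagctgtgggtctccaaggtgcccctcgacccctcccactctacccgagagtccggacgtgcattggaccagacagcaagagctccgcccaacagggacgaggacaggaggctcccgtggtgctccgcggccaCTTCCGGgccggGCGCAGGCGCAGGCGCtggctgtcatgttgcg
Mrps12: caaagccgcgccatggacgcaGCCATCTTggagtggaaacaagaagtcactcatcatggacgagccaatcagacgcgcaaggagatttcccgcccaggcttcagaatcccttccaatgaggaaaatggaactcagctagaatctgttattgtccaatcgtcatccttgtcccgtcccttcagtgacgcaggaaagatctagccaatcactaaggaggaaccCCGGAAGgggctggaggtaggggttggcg
Mrpl50: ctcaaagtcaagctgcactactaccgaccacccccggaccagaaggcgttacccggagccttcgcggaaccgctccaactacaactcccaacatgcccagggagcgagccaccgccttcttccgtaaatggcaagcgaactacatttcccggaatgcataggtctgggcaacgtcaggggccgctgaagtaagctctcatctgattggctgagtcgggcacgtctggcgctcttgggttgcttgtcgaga
Mrpl14 and Mrpl30 each hold an NRF1 match, and Mrps26 holds overlapping NRF1 matches beside an ETS match. Mrpl34 holds an ETS match, Mrps12 an ETS and a YY1 match, and the Mrpl50 stretch none of the 3. Over windows of 300 bases (250 before to 50 after the start), 67 of the 77 members matched a RefSeq promoter. NRF1 letters occurred in 12 of the 67 members (17.9%), against 4.78% of the promoters of all 27025 RefSeq genes and 9.73% of those of 9756 tested coding genes. ETS letters occurred in 23 members (34.3%), against 9.12% of all genes and 16.6% of tested coding genes. YY1 letters occurred in 12 members (17.9%), against 2.88% of all genes and 4.28% of tested coding genes. At least 1 of these 3 motifs was found in 40 of the 67 members. The GC box GGGCGG occurred in 33 members (49.3%), against 35.9% of all genes and 61.6% of tested coding genes. The E-box CACGTG occurred in 5 members (7.46%), against 7.24% of all genes and 9.92% of tested coding genes. The TATA box TATAAA occurred in 4 members (5.97%), against 14.2% of all genes and 7.77% of tested coding genes. All 6 motifs were searched on both strands. In DEN_KO against DEN_WT, where 16.4% of all tested genes rose, 8 of 12 tested members with the NRF1 letters rose, and 25 of 54 without. For ETS letters 13 of 22 rose with them and 20 of 44 without, and for YY1 letters 5 of 12 rose with them and 28 of 54 without. A match is a description of letters and does not show binding.

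The values are normalised read counts, scaled by the authors and rounded to whole numbers, and their sums ran from 22320634 to 28973396 per library. Because transcript lengths were not given, levels are compared between groups for 1 gene and not between genes. Smyd3 itself stood at 12, 3 and 8 in DEN_KO, at 57, 71 and 74 in DEN_WT, at 29, 17 and 22 in KO and at 79, 89 and 59 in WT, so each knockout library lay below each wild type library. All 8 hepatocyte markers (Alb, Ttr and others) were detected, with summed values of 1752830 to 2646382 in DEN_KO, 3036271 to 4622219 in DEN_WT, 1874673 to 3219539 in KO and 2255641 to 2431159 in WT. Alb alone gave most of that sum, at 1607401, 1251109 and 904165 in DEN_KO and 2081265, 3386204 and 2533532 in DEN_WT, while Ttr was at 179066, 125224 and 115439 in DEN_KO and 37286, 44929 and 49742 in DEN_WT. The 10 highest genes took 22.4% to 33.4% of each DEN_WT library and 15.1% to 20.6% of each other library. DEN_WT replicate 2 stood apart, with 33.4% in those 10 genes and the highest sum of 6 dividing-cell markers, 2201. Of the 77 members, 76 reached 10 in 3 libraries or more and were tested. The exception was Mrpl53, a large subunit gene, at 0, 0 and 4 in DEN_KO, 0 in each DEN_WT library, 1, 0 and 0 in KO, and 1, 0 and 0 in WT.

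Summed over all 77 members, the values were 54956, 54351 and 55371 in DEN_KO, 40829, 38553 and 41018 in DEN_WT, 46497, 49009 and 48756 in KO, and 52535, 57051 and 58178 in WT. Each DEN_WT sum lay below each KO sum, each KO sum lay below each WT sum, and DEN_KO and WT overlapped. As a share of each library's sum, the members took 0.232% ± 0.000985 in DEN_KO, 0.174% ± 0.0101 in DEN_WT, 0.195% ± 0.0163 in KO and 0.208% ± 0.0100 in WT (SD, n = 3 each). By these shares DEN_WT overlapped KO and KO overlapped WT, while each DEN_KO share lay above each WT share. After each gene was centred on its own mean over the libraries (log2 scale), the median member stood at 0.32, 0.22 and 0.20 in DEN_KO, −0.30, −0.35 and −0.29 in DEN_WT, −0.11, −0.03 and 0.04 in KO, and 0.12, 0.14 and 0.22 in WT. The mean of DEN_KO was at or above the mean of WT in 40 of 76 members. The heatmap of the 76 members shows that the high values of DEN_KO were concentrated in part of the family.

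**Figure D1:**
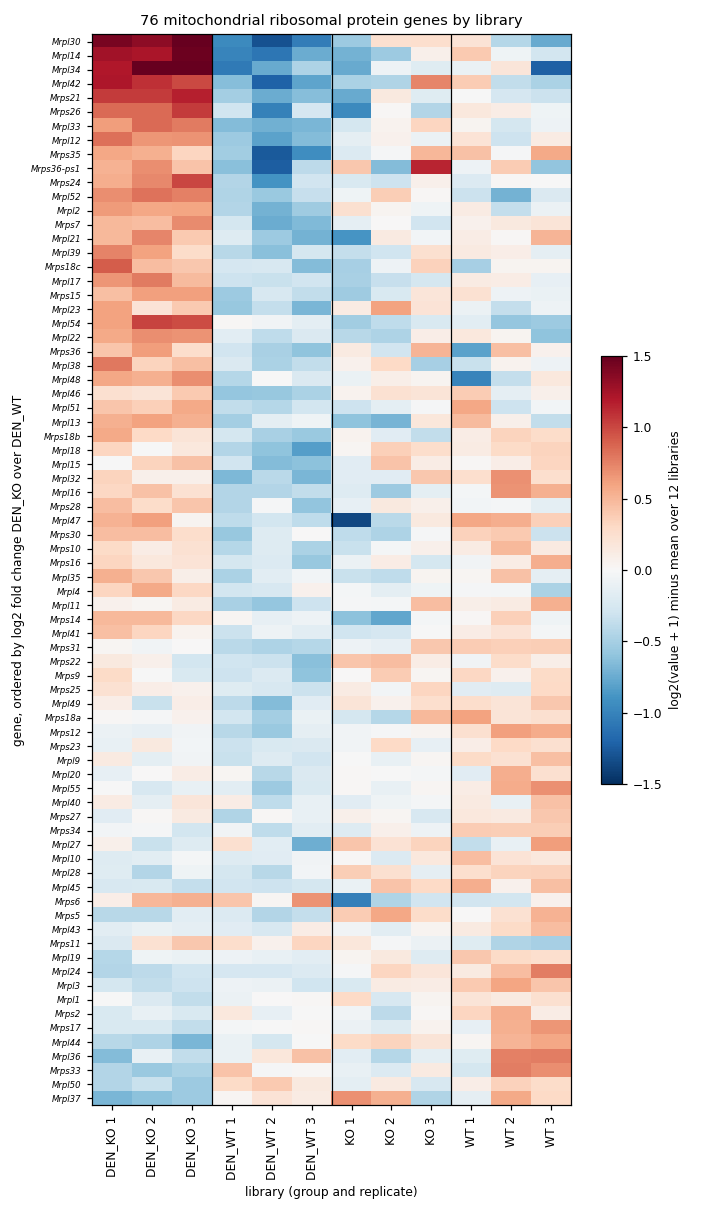
Level of each of the 76 tested mitochondrial ribosomal protein genes (rows) in the 12 libraries (columns), as log2(value + 1) minus the gene's mean over the libraries. The colour scale ends at 1.5 either way, and genes are ordered by the log2 fold change of DEN_KO over DEN_WT, from 2.54 for Mrpl30 at the top to −0.73 for Mrpl37 at the bottom.

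The comparison of DEN_WT with WT asks what accompanied DEN treatment in wild type liver. Many members were lower in DEN_WT. Differences are log2 fold changes on the log2(value + 1) scale, tested with limma in 1 fit of the 4 groups, and a call needs a Benjamini-Hochberg adjusted p below 0.05 over all 16471 tested genes. With this test 32 of 76 members fell, where 13.5% of all tested genes fell, and 1 member rose, where 16.1% of all tested genes rose. The median member changed by −0.46, against −0.02 for all tested genes, and 70 of 76 members lay below 0. In 47 members each DEN_WT library lay below each WT library, which held for 20.9% of all tested genes. When each library was instead rescaled to the same sum without its 10 highest genes, the median of all genes moved to 0.37, the members' median to −0.06, and the split to 3 members higher and 4 lower, where 29.7% and 5.39% of all tested genes were higher and lower on that scale. Relative to the median of all genes, the members' median was −0.44 on the deposited scale and −0.43 after that rescaling. The rescaling applies the same factor to every gene of a library, so this distance could hardly change and is no check of it. The 4 members that fell on both scales were Mrps35, Mrpl32, Mrpl18 and Mrps12, and the other calls named below as lower were lost on the rescaled values. Under quantile normalization, a further alternative, 1 member was higher and 36 lower, with medians of −0.49 for the members and −0.11 for all genes.

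The largest fall was in Mrps35, a small subunit protein with no bacterial counterpart, at 283, 170 and 213 in DEN_WT and 553, 402 and 605 in WT. Its log2 fold change was −1.23 ± 0.23 (SE), with a limma adjusted p of 0.00157, and no library of 1 group reached the other. Mrpl32, the counterpart of a bacterial large subunit protein and known in yeast and mouse as a substrate of the m-AAA protease, stood at 205, 247 and 202 in DEN_WT and 390, 527 and 390 in WT. Mrps12, whose bacterial counterpart lies in the decoding centre, stood at 1216, 1099 and 1470 in DEN_WT and 1908, 2478 and 2373 in WT, a log2 fold change of −0.84 ± 0.15 (limma adjusted p = 0.00106). Mrpl18 fell by 0.87 on the log2 scale, to 469, 418 and 357 in DEN_WT, against 693, 778 and 802 in WT. These 4 groups of values did not overlap between DEN_WT and WT.

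Besides the members with the largest changes, 10 subunit genes (Mrps7, Mrps12, Mrps16, Mrps18b, Mrps22, Mrpl3, Mrpl11, Mrpl12, Mrpl41 and Mrpl44) are followed through every comparison whatever their values. Mrpl14, a protein of the face between the subunits, fell by 0.96 on the log2 scale, at 405, 378 and 478 in DEN_WT and 1056, 766 and 662 in WT. Mrpl11, which in bacteria forms the base of the stalk that recruits translation factors, fell by 0.71, and Mrpl12, the stalk protein itself, fell by 0.67, at 958, 801 and 890 in DEN_WT and 1609, 1127 and 1526 in WT. Mrps7, a protein of the small subunit head, was at 1179, 849 and 898 in DEN_WT and 1488, 1568 and 1626 in WT, and fell by 0.69. Mrpl16, Mrps31, Mrpl55, Mrps18b and Mrpl3 fell by 0.81, 0.80, 0.76, 0.68 and 0.62. Mrpl30, Mrpl44 and Mrps16 fell by 0.77, 0.50 and 0.55 with limma adjusted p of 0.040, 0.038 and 0.038, and these 3 calls were lost when some single libraries were left out, Mrpl30 reaching −0.51 with an adjusted p of 0.16 without WT replicate 1, Mrpl44 −0.39 and 0.13 without WT replicate 3, and Mrps16 −0.38 and 0.15 without WT replicate 3. Mrps22 and Mrpl41 did not pass, at −0.52 ± 0.19 (limma adjusted p = 0.052) and −0.28 ± 0.16 (limma adjusted p = 0.21), and the value of Mrpl41 was 0.11 after rescaling to the sum without the 10 highest genes.

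The single member that rose in DEN_WT was Mrps11, a small subunit protein with a bacterial counterpart, at 426, 372 and 446 in DEN_WT and 313, 261 and 252 in WT. Its log2 fold change was 0.59 ± 0.18 (limma adjusted p = 0.027), and the call was lost without DEN_WT replicate 1 (adjusted p = 0.071), DEN_WT replicate 3 (0.091), WT replicate 2 (0.079) or WT replicate 3 (0.082). Mrps11 overlaps Mrpl46 at their 5′ ends on opposite strands, with starts 412 bases apart. Mrpl46 stood at 230, 232 and 247 in DEN_WT and 447, 314 and 362 in WT, a fall of 0.65. Whether counting used strand is not given in the sources used here, so the values of this pair could share reads.

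The comparison of DEN_KO with DEN_WT asks how Smyd3-deficient livers differed after the same treatment. Many members were higher in DEN_KO, and the largest differences were several-fold. By the same test 41 of 76 members rose, where 16.4% of all tested genes rose, and 2 members fell, where 17.4% of all tested genes fell. The median member changed by 0.57, against −0.06 for all tested genes. In 50 members each DEN_KO library lay above each DEN_WT library, against 23.6% of all tested genes, and in 7 each lay below, against 26.4%. After rescaling to the sum without the 10 highest genes, the median of all genes was −0.29 and that of the members 0.33, with 28 members higher and 7 lower, where 11.5% and 27.8% of all tested genes were. Relative to all genes the members' median was 0.62 on both scales, a distance that the rescaling by construction leaves nearly unchanged. This comparison and the preceding comparison share the DEN_WT libraries. Without DEN_WT replicate 2, the library that stood apart, 34 members rose in DEN_KO against DEN_WT and 22 fell in DEN_WT against WT.

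Mrpl30, Mrpl14 and Mrpl34, all large subunit proteins with bacterial counterparts, differed most. Mrpl30 stood at 711, 672 and 786 in DEN_KO and 136, 107 and 129 in DEN_WT, a log2 fold change of 2.54 ± 0.26 (limma adjusted p = 5.1e-05). Mrpl14, which in human cells binds the assembly factor MALSU1, stood at 1922, 1883 and 2220 in DEN_KO and 405, 378 and 478 in DEN_WT, a log2 fold change of 2.26 ± 0.22 (limma adjusted p = 3.8e-05). Mrpl34 was at 1172, 1620 and 1514 in DEN_KO and 244, 302 and 371 in DEN_WT, with 2.23 ± 0.31 (limma adjusted p = 0.000268). For all 3 genes the 9 libraries outside DEN_KO lay below the 3 DEN_KO libraries. In the files' build (mm9) Mrpl14 lies at chr17:45823271-45835444 on the plus strand, overlapping Tmem63b on the other strand at its 5′ end. Mrpl30 (chr1:37947322-37955380, plus strand) and Mrpl34 (chr8:73988825-73989651, plus strand) overlap no other listed gene.

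Mrpl42, a large subunit protein without a bacterial counterpart, was lower in value, at 208, 191 and 178 in DEN_KO and 57, 38 and 51 in DEN_WT, a log2 fold change of 1.98 ± 0.34. Mrps21, the counterpart of bacterial S21, stood at 515, 515 and 559 in DEN_KO and 174, 148 and 159 in DEN_WT, a log2 fold change of 1.72. Mrps26, specific to mitochondria, stood at 467, 464 and 534 in DEN_KO and 209, 127 and 216 in DEN_WT, with 1.44. None of these 3 genes had a DEN_WT library within the range of DEN_KO. Mrpl12, the stalk protein, was at 2486, 2222 and 2236 in DEN_KO and 958, 801 and 890 in DEN_WT, a log2 fold change of 1.39 ± 0.16 (limma adjusted p = 8e-05). Mrpl33 and Mrps35 rose by 1.44 and 1.38, Mrps35 to 609, 590 and 509 in DEN_KO, against 283, 170 and 213 in DEN_WT. Mrps7 rose by 1.11 and Mrps18b by 0.79, to 835, 689 and 644 in DEN_KO, against 468, 401 and 382 in DEN_WT.

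Smaller rises were less stable. Mrps16 rose by 0.57, Mrpl11 by 0.53 and Mrpl41 by 0.46, with limma adjusted p of 0.028, 0.034 and 0.041. Each of these 3 calls was lost when some single libraries of DEN_KO or DEN_WT were left out, with adjusted p up to 0.11 for Mrps16 (without DEN_WT replicate 3), 0.11 for Mrpl11 (without DEN_WT replicate 2) and 0.14 for Mrpl41 (without DEN_KO replicate 1). Rescaling to the sum without the 10 highest genes also ended these 3 calls, at 0.33, 0.29 and 0.22 (limma adjusted p of 0.20, 0.20 and 0.35). Mrps36-ps1 rose by 1.30, at 101, 114 and 94 in DEN_KO and 45, 29 and 53 in DEN_WT, and Mrps36 rose by 0.89, at 131, 152 and 118 in DEN_KO and 80, 70 and 64 in DEN_WT. The Mrps36 call was lost after that rescaling (0.66, limma adjusted p = 0.083). The annotation in the table gives Mrps36-ps1 as protein coding, but its name marks a near copy of Mrps36, and reads may have been split between the copies. Without DEN_WT replicate 2 the value of Mrps36-ps1 was 1.06 with an adjusted p of 0.10. The Mrps36 protein has since been assigned, in yeast and mammals, to the oxoglutarate dehydrogenase complex.

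The 2 members that fell were Mrpl50 and Mrpl37, large subunit proteins specific to mitochondria. Mrpl50 stood at 859, 925 and 798 in DEN_KO and 1418, 1534 and 1292 in DEN_WT, a log2 fold change of −0.72 ± 0.15 (limma adjusted p = 0.00268). Mrpl37 stood at 1044, 1093 and 1154 in DEN_KO and 1707, 1932 and 1821 in DEN_WT, with −0.73 ± 0.26 (limma adjusted p = 0.042). Both genes had no overlap between these groups. The Mrpl37 call was lost without any 1 of the 6 libraries compared or without WT replicate 3, with an adjusted p up to 0.11 (without DEN_WT replicate 2). The count of members that fell was 5 without WT replicate 1 and 1 without any 1 of the 6 libraries compared or without WT replicate 3. Of the 10 genes followed throughout, those that did not pass were Mrps12 at 0.28 ± 0.15, Mrps22 at 0.40 ± 0.19, Mrpl3 at −0.17 ± 0.15 and Mrpl44 at −0.40 ± 0.17 (limma adjusted p of 0.17, 0.11, 0.42 and 0.080). Mrpl44, a large subunit protein whose mutation in humans causes cardiomyopathy, was at 552, 534 and 458 in DEN_KO and 689, 612 and 734 in DEN_WT. It passed as lower after rescaling to the sum without the 10 highest genes (−0.64, limma adjusted p = 0.0077).

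**Figure D2:**
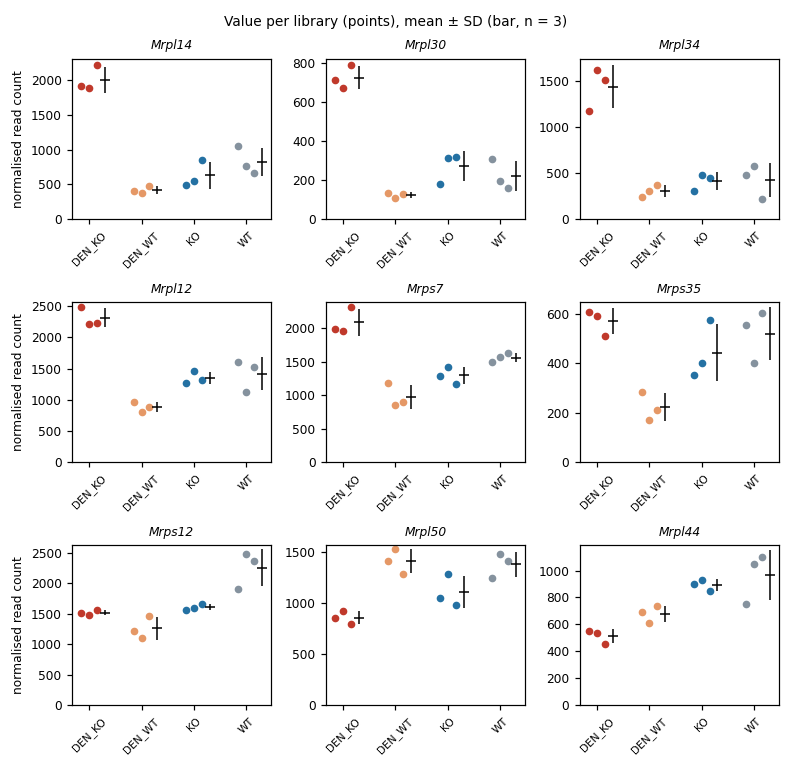
Normalised read count of 9 members in each library (points, vertical axis from 0), with the mean ± SD of the 3 libraries of a group (bar) to their right. Mrpl14, Mrpl30 and Mrpl34 were highest in each DEN_KO library, while Mrpl50 was lower in DEN_KO (859, 925 and 798) than in DEN_WT (1418, 1534 and 1292).

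The family was split by subunit and by whether a bacterial counterpart was listed. The shares of all tested genes are those given above (16.4% higher and 17.4% lower in DEN_KO against DEN_WT, 16.1% and 13.5% in DEN_WT against WT). Of 16 tested small subunit proteins with a bacterial counterpart, 8 rose and 0 fell in DEN_KO against DEN_WT, and 1 rose and 6 fell in DEN_WT against WT. Of 10 small subunit proteins specific to mitochondria, 3 rose and 0 fell in DEN_KO against DEN_WT (Mrps26, Mrps35 and Mrps18b), and 5 fell in DEN_WT against WT. Of 30 large subunit proteins with a bacterial counterpart, 18 rose and 0 fell in DEN_KO against DEN_WT, with a median of 0.74, and 16 fell in DEN_WT against WT, with a median of −0.57. Of 18 large subunit proteins specific to mitochondria, 10 rose and 2 fell in DEN_KO against DEN_WT, and 5 fell in DEN_WT against WT. The medians of the 4 classes in DEN_KO against DEN_WT lay between 0.39 and 0.74, against −0.06 for all tested genes. These medians stayed above 0 after rescaling to the sum without the 10 highest genes, while in DEN_WT against WT the median of the mitochondria-specific large subunit proteins went to 0.0010. Differences between the classes were not tested. Mrps30 and Mrps18a, which carry small subunit names but sit in the large subunit, were counted there, Mrps30 at 0.65 and Mrps18a at 0.31 in DEN_KO against DEN_WT. Mrps18a, Mrps18b and Mrps18c share a protein name, but only Mrps18c was listed with a bacterial counterpart. For Mrps18a and Mrps18b the split is therefore not one of descent.

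**Figure D3:**
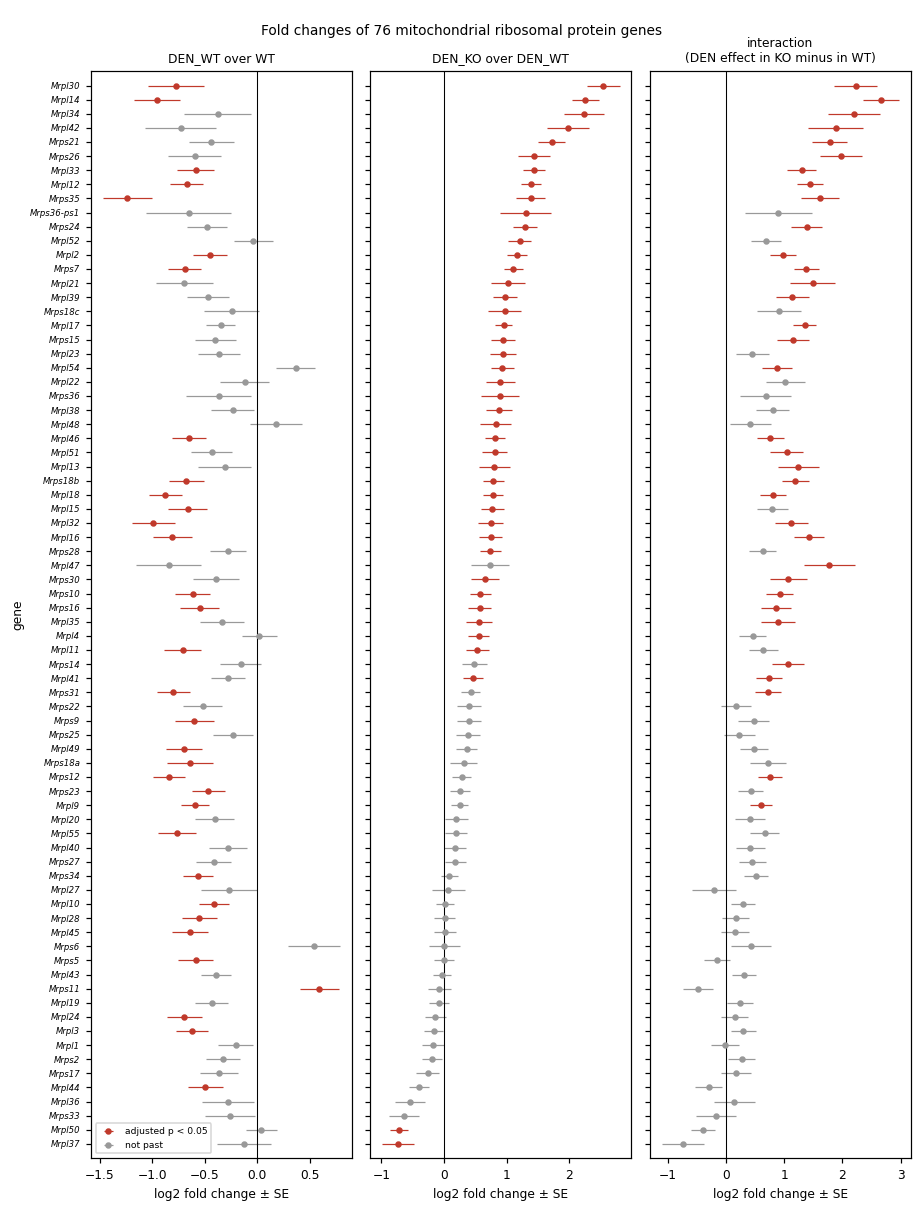
Log2 fold change ± SE of the 76 tested members in DEN_WT over WT, in DEN_KO over DEN_WT and in the interaction (the DEN effect in knockout minus that in wild type), with genes in the same order in the 3 panels. Red points passed an adjusted p of 0.05, which held for 33 members in the first panel, 43 in the second and 34 in the third.

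The interaction asks whether the DEN effect differed between genotypes, as the effect in knockout (DEN_KO against KO) minus the effect in wild type (DEN_WT against WT). It passed for 34 of 76 members with a positive value, where 8.73% of all tested genes did, and for 0 with a negative value, where 7.83% of all tested genes did. The median member was at 0.72, against −0.03 for all tested genes, and 68 of 76 members lay above 0. After rescaling to the sum without the 10 highest genes, 15 members were positive and 1 (Mrpl50) negative, where 4.98% and 16.5% of all tested genes were, with medians of 0.38 for the members and −0.36 for all genes. The value was largest for Mrpl14 (2.66 ± 0.31, limma adjusted p = 0.000689), then Mrpl30 (2.23 ± 0.37) and Mrpl34 (2.20 ± 0.44). Mrps26, Mrpl42, Mrps21, Mrpl47, Mrps35, Mrpl21 and Mrpl12 followed at 1.97, 1.89, 1.79, 1.78, 1.62, 1.49 and 1.45. Without KO replicate 1 the count of positive values was 20, and without KO replicate 3 there was 1 negative. Mrpl47, counterpart of bacterial L29, was at 217, 232 and 156 in DEN_KO, 116, 125 and 116 in DEN_WT, 58, 114 and 167 in KO, and 227, 222 and 194 in WT. Its KO libraries spread most widely in the family after those of Mrps36-ps1, with an SD of 0.76 on the log2 scale.

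Of the genes followed throughout, Mrps7 had an interaction of 1.38 ± 0.22 and Mrps18b of 1.19 ± 0.23, and both passed whichever library was left out. Mrps16 (0.86), Mrps12 (0.76) and Mrpl41 (0.74) passed with limma adjusted p of 0.039, 0.028 and 0.041. Their calls were kept in 4, 4 and 3 of the 12 fits that leave out 1 library, with adjusted p up to 0.090, 0.068 and 0.096. Mrpl11 (0.64 ± 0.25), Mrpl3 (0.30 ± 0.21), Mrps22 (0.17 ± 0.26) and Mrpl44 (−0.30 ± 0.23) did not pass. After rescaling to the sum without the 10 highest genes, Mrps22 and Mrpl3 turned to −0.17 and −0.04, and the calls of Mrps16, Mrps12, Mrpl41 and Mrpl21 were lost, at 0.52, 0.41, 0.40 and 1.15 (limma adjusted p of 0.20, 0.15, 0.26 and 0.051).

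The comparison of DEN_KO with KO asks what accompanied DEN treatment without Smyd3. Here 21 of 76 members rose, where 8.91% of all tested genes rose, and 4 fell, where 6.02% of all tested genes fell. The median member changed by 0.19, against 0.02 for all tested genes. Mrpl34, Mrpl14 and Mrpl30 again had the largest values, 1.82 ± 0.31, 1.71 ± 0.22 and 1.46 ± 0.26. Mrpl34 stood at 1172, 1620 and 1514 in DEN_KO and 301, 482 and 450 in KO. Mrpl14 stood at 1922, 1883 and 2220 in DEN_KO and 492, 550 and 847 in KO. The DEN_KO libraries are shared with the comparison of DEN_KO with DEN_WT. Mrps26, Mrps21, Mrpl54, Mrpl42, Mrpl17, Mrps6 and Mrpl13 followed at 1.38, 1.35, 1.25, 1.16, 1.01, 0.97 and 0.93. Mrpl54, specific to the mitochondrial large subunit, was at 406, 541 and 527 in DEN_KO and 185, 205 and 227 in KO. Of the genes followed throughout Mrpl12 rose by 0.78 and Mrps7 by 0.69, while Mrps18b and Mrpl41 were at 0.51 and 0.46 and did not pass (limma adjusted p of 0.051 and 0.069). Mrps18b passed after rescaling to the sum without the 10 highest genes (0.57, limma adjusted p = 0.049). The count of members that rose was 11 without DEN_KO replicate 2, without DEN_KO replicate 3 or without KO replicate 1.

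The 4 members that fell in DEN_KO against KO were Mrpl37, Mrpl44, Mrps5 and Mrpl24. Mrpl44 stood at 552, 534 and 458 in DEN_KO and 897, 931 and 845 in KO, a log2 fold change of −0.79 ± 0.17 (limma adjusted p = 0.0084). Mrps5, whose bacterial counterpart borders the messenger RNA channel, stood at 724, 726 and 868 in DEN_KO and 1260, 1444 and 1171 in KO, with −0.74 ± 0.16 (limma adjusted p = 0.0105). For both genes the groups did not overlap. Mrpl24, which had the highest mean of the family (2220 over the 12 libraries), was at 1590, 1631 and 1744 in DEN_KO and 2117, 2679 and 2444 in KO. Its fall of 0.54 passed in 2 of the 12 fits that leave out 1 library, and after rescaling to the sum without the 10 highest genes neither Mrpl24 nor Mrpl37 passed (limma adjusted p of 0.062 and 0.053). Mrpl37 fell by 0.87 in DEN_KO, but KO replicate 3 at 1226 lay near the DEN_KO values while the other KO libraries were at 2700 and 2433. Without KO replicate 1 its value was −0.66 with an adjusted p of 0.14. The lower count was 2 without any 1 DEN_KO library or without KO replicate 2.

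In untreated mice no member passed the test between genotypes, though the family's summed values did not overlap. As shares of each library's sum they did overlap, at 0.195%, 0.212% and 0.179% in KO and 0.214%, 0.197% and 0.215% in WT. In KO against WT 0 of 76 members rose and 0 fell, where 0.546% and 0.613% of all tested genes were called higher and lower by limma. At an unadjusted p below 0.05 there were 18 members, where 15.1% of all tested genes passed. The median member was at −0.21, against −0.02 for all tested genes, and 54 of 76 members lay below 0. In 15 members each KO library lay below each WT library, against 9.05% of all tested genes, and in 3 each lay above, against 8.4%. Mrps34, a small subunit protein specific to mitochondria, was at 1141, 1376 and 1232 in KO and 1690, 1676 and 1673 in WT. Mrpl16 was at 550, 431 and 567 in KO and 615, 1002 and 910 in WT, a log2 fold change of −0.69 (limma adjusted p = 0.10). Mrps34 and Mrpl16 are named here after their values were seen. Without WT replicate 1 there were 3 members lower, and without KO replicate 3 there were 2. For the 10 genes followed throughout the values ran between −0.48 (Mrps12) and 0.23 (Mrps22), and none passed.

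Members with low values differed more than members with high values in DEN_KO against DEN_WT. Among the 25 members of lowest mean (77.7 to 366), 19 rose and the median log2 fold change was 0.93. Among the 26 in the middle, 14 rose, with a median of 0.51. Among the 25 of highest mean (676 to 2220), 8 rose and 2 fell, with a median of 0.09. Across the 76 members the log2 fold change had a Pearson r of −0.39 and a Spearman rho of −0.43 with the log2 mean, against 0.09 and 0.09 across all 16471 tested genes. These are descriptions over genes of the same libraries, and genes are not independent replicates. In DEN_WT against WT the medians of the same 3 bins were −0.44, −0.46 and −0.48. The log2 fold change of DEN_KO over DEN_WT had an r of 0.04 with the GC share of the gene.

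**Figure D4:**
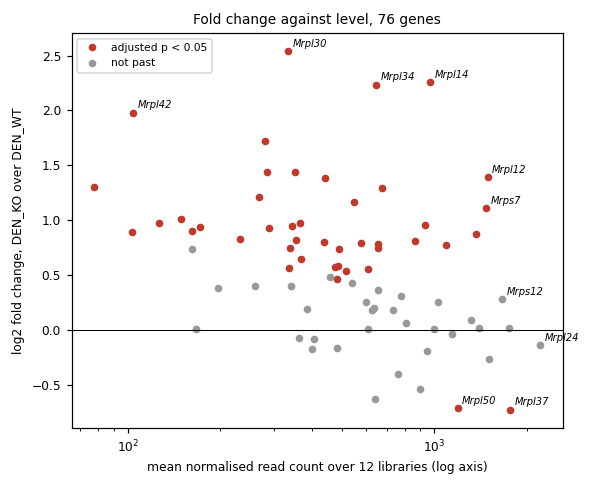
Log2 fold change of DEN_KO over DEN_WT against the mean normalised read count over the 12 libraries (log axis) for the 76 tested members. Members below about 366 lie mostly above 0 (median 0.93 for the 25 lowest), and members above 676 spread around 0 (median 0.09), with Mrpl12, Mrps7 and Mrpl14 among the exceptions.

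The median SD of log2 values within a group was 0.13 in DEN_KO, 0.16 in DEN_WT, 0.21 in KO and 0.23 in WT. For all tested genes it was 0.25 in DEN_KO, 0.27 in DEN_WT, 0.30 in KO and 0.29 in WT, and for the 9793 genes within the members' range of means it was 0.20 in DEN_KO, 0.21 in DEN_WT, 0.24 in KO and 0.24 in WT. The widest spreads were those of Mrps36-ps1 in KO (93, 44 and 156), Mrpl47 in KO (58, 114 and 167) and Mrpl34 in WT (475, 580 and 218).

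Genes that act with these ribosomes were counted in the same fit. For these and the lists after them, 16.4% of all tested genes rose and 17.4% fell in DEN_KO against DEN_WT. In DEN_WT against WT 16.1% rose and 13.5% fell. Of 8 listed subunit and insertase genes with other names, 4 rose in DEN_KO against DEN_WT and 4 fell in DEN_WT against WT. Dap3 and Ptcd3 belong to the small subunit, and Oxa1l is the inner membrane insertase that receives new chains. Ptcd3 fell by 0.94 and Oxa1l by 0.56 in DEN_WT, while Aurkaip1, Gadd45gip1 and Dap3 rose by 0.93, 0.91 and 0.54 in DEN_KO against DEN_WT. Of 12 translation factors, 7 fell in DEN_WT against WT and 3 rose in DEN_KO against DEN_WT, with the elongation factor Gfm1 at −0.98 in DEN_WT against WT and 0.67 in DEN_KO against DEN_WT. Of 18 assembly and rRNA modification genes, 5 fell in DEN_WT against WT, among them the GTPases Noa1 (−1.13) and Mtg1 (−1.06). In DEN_KO against DEN_WT 7 of the 18 rose, among them Rbfa (1.66) and Mpv17l2 (1.27), and Fastkd2 fell by 0.62. Of 20 mitochondrial aminoacyl-tRNA synthetase genes, 6 fell in DEN_WT against WT, among them Nars2 (−1.25). In DEN_KO against DEN_WT 4 of the 20 rose, close to the share of all tested genes, and Pars2 fell by 1.00. Lars2 was called with 2.71, but its values lay far above those of the other 19 synthetase genes (45 to 2298) and were uneven within groups, at 48173, 238863 and 245844 in DEN_KO, 29831, 31299 and 10741 in DEN_WT, 20990, 30006 and 41595 in KO, and 62116, 15105 and 19055 in WT.

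Of 11 genes of mitochondrial transcription and genome upkeep, 5 fell in DEN_WT against WT, among them Lrpprc (−0.87) and the helicase gene Peo1 (−0.87), and 4 rose in DEN_KO against DEN_WT, among them Polg2 (1.17) and Ssbp1 (0.92). Tfam, which packages the mitochondrial genome, and the mitochondrial RNA polymerase Polrmt did not pass in either comparison. Tfam was at 904, 914 and 721 in DEN_KO, 720, 757 and 857 in DEN_WT, 804, 776 and 938 in KO, and 929, 946 and 1086 in WT. These small lists depended on the scaling. On the rescaled values 11.5% of all tested genes were higher and 27.8% lower in DEN_KO against DEN_WT, and 29.7% and 5.39% in DEN_WT against WT. After rescaling to the sum without the 10 highest genes, the translation factors had 0 higher and 3 lower in DEN_KO against DEN_WT, the synthetases 2 and 4, the assembly genes 3 and 3, and the transcription and upkeep genes 1 and 0. In DEN_WT against WT the same rescaling left 1 higher and 1 lower among translation factors, 2 and 3 among synthetases, 0 and 1 among assembly genes, and 0 and 0 among both the transcription and upkeep genes and the 8 genes with other names.

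Regulators of mitochondrial biogenesis were counted in the same way. Nrf1 was at 219, 244 and 190 in DEN_KO, 230, 268 and 352 in DEN_WT, 226, 229 and 219 in KO, and 282, 227 and 223 in WT. Gabpa was at 701, 713 and 591 in DEN_KO, 825, 1100 and 761 in DEN_WT, 950, 960 and 1139 in KO, and 960, 1155 and 929 in WT. In DEN_KO against DEN_WT neither passed, at −0.36 and −0.41, and the coactivator gene Ppargc1a was at 0.29 ± 0.50 (limma adjusted p of 0.16, 0.080 and 0.69). Of the 10 listed regulators, 1 rose in DEN_KO against DEN_WT, the nuclear receptor gene Esrra (0.66), and 4 fell, namely Myc (−1.70), Nfe2l2 (−1.03), Yy1 (−0.91) and Pprc1 (−0.82). Yy1, whose motif is shown for Mrps12 above, was at 735, 681 and 678 in DEN_KO and 1244, 1384 and 1317 in DEN_WT. Myc stood at 77, 177 and 110 in DEN_KO, 439, 394 and 302 in DEN_WT, 104, 120 and 191 in KO, and 52, 88 and 95 in WT. It was the single regulator called in DEN_WT against WT (2.29 ± 0.33, limma adjusted p = 0.000275), and rescaling to the sum without the 10 highest genes gave 3 regulators higher there and 7 lower in DEN_KO against DEN_WT.

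Respiratory chain and ATP synthase subunit genes, many of whose complexes hold subunits that these ribosomes make, moved further. Of 81 tested, 60 fell in DEN_WT against WT and 64 rose in DEN_KO against DEN_WT, with medians of −0.84 and 1.10, and 2 fell in DEN_KO against DEN_WT. The interaction was positive for 60, where 8.73% of all tested genes were. Cox6b1, a subunit of cytochrome c oxidase, was among the largest, at −1.33 in DEN_WT against WT and 2.96 in DEN_KO against DEN_WT. Cytosolic ribosomal protein genes differed in part: of 82 tested, 0 rose and 3 fell in DEN_WT against WT, and 45 rose and 2 fell in DEN_KO against DEN_WT, with medians of −0.09 and 0.73. In DEN_KO against KO 34 of the 82 rose, with a median of 0.63, where 8.91% of all tested genes rose. After rescaling to the sum without the 10 highest genes, 26 of the 81 respiratory genes fell in DEN_WT against WT and 59 rose in DEN_KO against DEN_WT. With that rescaling the cytosolic ribosomal genes turned to 15 higher and 0 lower in DEN_WT against WT, where 29.7% and 5.39% of all tested genes were. No gene with a name starting with mt- was listed, so genes encoded by the mitochondrial genome were not analysed here.

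**Figure D5:**
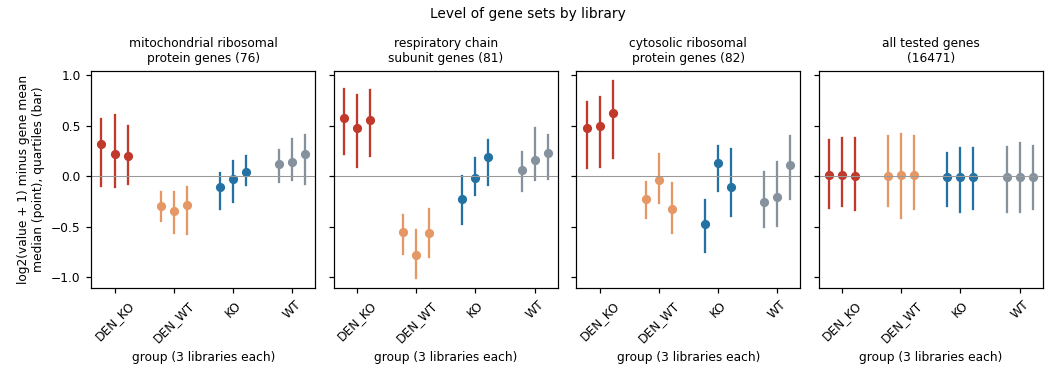
Median (point) and quartiles (bar) of log2(value + 1) minus each gene's mean, in each library, for the 76 mitochondrial ribosomal protein genes, 81 respiratory chain subunit genes, 82 cytosolic ribosomal protein genes and all 16471 tested genes. For the mitochondrial ribosomal genes the medians were 0.20 to 0.32 in DEN_KO, −0.35 to −0.29 in DEN_WT, −0.11 to 0.04 in KO and 0.12 to 0.22 in WT.

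Some markers of other cells also moved with the groups. The sum of 5 cholangiocyte markers was 1074 to 1801 in DEN_KO, 9721 to 16637 in DEN_WT, 786 to 863 in KO and 902 to 1107 in WT, and Spp1 alone gave most of it, at 1212, 1470 and 811 in DEN_KO and 9331, 13627 and 16227 in DEN_WT. Of the 5, 1 rose and 0 fell in DEN_WT against WT, and 0 rose and 1 fell in DEN_KO against DEN_WT. Krt19 was at 48, 19 and 53 in DEN_WT and 19, 55 and 50 in WT. The 6 dividing-cell markers summed to 233 to 356 in DEN_KO, 514 to 2201 in DEN_WT, 61 to 143 in KO and 54 to 112 in WT, and 6 of 6 rose in DEN_WT against WT while 4 of 6 fell in DEN_KO against DEN_WT. The 7 stellate cell markers summed to 3597 to 4461 in DEN_KO, 4861 to 8050 in DEN_WT, 3157 to 4202 in KO and 4275 to 4610 in WT, and 3 of 7 rose and 1 fell in DEN_WT against WT while 4 fell in DEN_KO against DEN_WT. The 7 endothelial markers summed to 6432 to 7387 in DEN_KO, 6690 to 6971 in DEN_WT, 5066 to 5427 in KO and 4335 to 5469 in WT, and 5 of 7 rose in DEN_WT against WT while 2 fell in DEN_KO against DEN_WT. Macrophage markers (7 of 8 listed names in the table) summed to 5114 to 7197 in DEN_KO, 1626 to 5235 in DEN_WT, 3512 to 3976 in KO and 3169 to 3589 in WT. Lymphocyte, erythroid and exocrine pancreas marker sums overlapped between DEN_KO and DEN_WT, at 211 to 240, 10881 to 16848 and 821 to 1143 in DEN_KO and 127 to 240, 5241 to 15513 and 660 to 967 in DEN_WT. Of the 3 erythroid markers, Alas2 fell in DEN_WT against WT and rose in DEN_KO against DEN_WT, at 4448, 3124 and 4927 in DEN_KO, 1234, 575 and 1147 in DEN_WT, 2746, 2603 and 2786 in KO, and 2603, 2842 and 2710 in WT. Of 8 hepatocyte markers, 1 rose and 3 fell in DEN_WT against WT, and 4 rose in DEN_KO against DEN_WT. No marker of these lists was at 0 in every library. Their part in the differences of the ribosomal protein genes was not tested.

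Chromatin from DEN-treated livers gave 1 deposited list of regions for Smyd3 in DEN_WT and 1 for H3K4me3, a mark of active start sites, in DEN_KO and in DEN_WT. A region counted for a gene when it overlapped the 1000 bases on either side of its start (mm9) by at least 1 base. H3K4me3 regions lay at 74 of 77 members in the DEN_KO list and at 74 in the DEN_WT list, the same genes in both. Of tested members that was 96.1%, against 72.4% of all tested genes and 80.5% of tested coding genes in the DEN_KO list, and 70.5% and 78.5% in the DEN_WT list. The exceptions were Mrpl33, Mrps24 and Mrps36-ps1. A Smyd3 region lay at 66 of 77 members, or 65 of 76 tested (85.5%), against 71.2% of tested coding genes and 64.2% of all tested genes. The members without a Smyd3 region were Mrpl11, Mrpl16, Mrpl22, Mrpl24, Mrpl27, Mrpl33, Mrpl35, Mrpl50, Mrps12, Mrps31 and Mrps36-ps1. In DEN_KO against DEN_WT 35 of 65 members with a Smyd3 region rose (53.8%) and 6 of 11 without it (54.5%), where 16.4% of all tested genes rose. In DEN_WT against WT 26 of the 65 fell, and 6 of the 11, where 13.5% of all tested genes fell.

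At Mrpl14 the Smyd3 region was chr17:45821966-45823736, and H3K4me3 covered chr17:45822024-45824284 in the DEN_KO list and chr17:45821793-45824248 in the DEN_WT list. At Mrpl30 the Smyd3 region was chr1:37947000-37947639, and H3K4me3 covered chr1:37946091-37948337 in the DEN_KO list and chr1:37945555-37948893 in the DEN_WT list. Over the 74 members the median region was 1753.5 bases long in the DEN_KO list and 1394 in the DEN_WT list, and it was longer in the DEN_KO list at 56 of them (75.7%), against 67.4% of 11329 tested genes with a region in both lists. Over those 11329 genes the median regions were longer than at the members, at 2057 bases in the DEN_KO list and 1821 in the DEN_WT list. Each list stands for 2 replicates of its group without a value per replicate, so these lengths have no test. Starts of 28 members had another coding gene starting within 1000 bases on the other strand, such as Mitd1, 66 bases from Mrpl30, and Sars2, the mitochondrial seryl-tRNA synthetase gene, 171 bases from Mrps12. A region at such a start belongs to both genes. By their listed coordinates 32 members overlap another gene, 19 of them a coding gene on the other strand. Of the 45 tested members that overlap no listed gene, 26 rose in DEN_KO against DEN_WT and 16 fell in DEN_WT against WT. Of all tested genes 16.4% rose and 13.5% fell in those comparisons.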

How the data were processed

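RNA was measured in 12 liver libraries, 3 in each of 4 groups, and chromatin in DEN-treated livers. The deposited table holds normalised read counts rounded to whole numbers (unit score), and each library's own deposited file equals its column. The deposited gene table also gives the GC content of each gene as a fraction, per the file headers. The region lists carry a score of 0 in every line, per the file headers, so only positions were used. The submitters' processing notes name cutadapt, TopHat2 2.0.9, Cufflinks, Bowtie2, DESeq and the build mm9, with no role or order. Not given in the sources used here: which program counted reads or called regions, on which annotation, and whether strand was used. Pol II and input libraries and mitochondrially encoded genes were not analysed here.

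Values plus a pseudocount of 1 were put on a log2 scale and fitted with limma 3.58.1 (R 4.3.3, trended variance) in 1 model of the 4 groups with 8 residual degrees of freedom. Genes reaching 10 in 3 libraries or more entered the test (16471, with 21112 left out), and p-values were Benjamini-Hochberg adjusted over all of them with a threshold of 0.05. The fit was checked on simulated data. The smallest chi-square per degree of freedom between libraries of a group was 32.1. It was computed on the scaled, rounded values, so it describes the spread and is not a test against sampling noise. The p-values measure the spread between the numbered replicates, taken here as separate mice. Scaled and rounded values allow no counting interval. Columns of no sample numbered 0.

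The members and lists were chosen with earlier results of these data known. Named members are the first 10 higher and first 10 lower called in each comparison, 10 genes followed whatever their values, the highest and lowest mean, the 3 widest spreads and any gene that fails the filter. In other lists they are the first 3 called each way, and regulators fixed by name. A gene that this rule names among the other lists is not reported here. All other names were chosen after their values were seen. Alternatives were pseudocounts of 0.5 and 5, no filter or a minimum of 50, quantile normalization, rescaling to the sum without the 10 highest genes, no trend, a fit of the compared groups alone, a replicate block, each library left out, and for regions other windows (250 and 2500 bases), the region's centre and a length minimum. Promoters came from RefSeq (GRCm38.p6). Figures were drawn with Python 3.11.15 and matplotlib 3.10.9.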

Additional observations from a re-analysis of the deposited data

Results flagged for a closer look

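The DEN effect differed between knockout and wild type livers, by the interaction term of the limma fit, for 34 members of the mitochondrial ribosomal protein family. All 34 had positive values, where 8.73% of all tested genes passed with a positive value. The difference in log2 fold change was 2.66 for Mrpl14, 2.23 for Mrpl30, 2.20 for Mrpl34, 1.97 for Mrps26 and 1.89 for Mrpl42. It was 1.79 for Mrps21, 1.78 for Mrpl47, 1.62 for Mrps35, 1.49 for Mrpl21 and 1.45 for Mrpl12. Of the genes followed whatever their values, Mrps7 was at 1.38, Mrps18b at 1.19, Mrps16 at 0.86, Mrps12 at 0.76 and Mrpl41 at 0.74. Rescaling to the sum without the 10 highest genes kept 15 of the 34 calls, where 4.98% of all tested genes passed with a positive value. Among the members named here it ended the calls of Mrps16 (0.52), Mrps12 (0.41), Mrpl41 (0.40) and Mrpl21 (1.15). The calls of Mrps16, Mrps12 and Mrpl41 were kept in 4, 4 and 3 of the 12 fits that leave out 1 library. Dixon's test for single libraries was not run, since each group has 3.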

How the results depend on the processing

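Rescaling to the sum without the 10 highest genes gave 3 higher and 4 lower in DEN_WT against WT (29.7% and 5.39% of all tested genes). In DEN_KO against DEN_WT it gave 28 and 7 (11.5% and 27.8%), and in DEN_KO against KO 21 and 2 (9.36% and 4.06%). In the interaction it gave 15 and 1 (4.98% and 16.5%). Quantile normalization gave 1 higher and 36 lower in DEN_WT against WT, and 47 and 2 in DEN_KO against DEN_WT. For DEN_KO against KO it gave 23 and 4, and for the interaction 35 and 0. On those values the median member was at −0.49, 0.65, 0.16 and 0.75, against −0.11, −0.03, −0.06 and −0.02 for all tested genes. Without the filter or without the trend, 1 member was lower in DEN_KO against DEN_WT and 2 in DEN_KO against KO. Leaving out 1 library at a time gave 0 to 1 higher and 22 to 36 lower in DEN_WT against WT, and 31 to 44 higher and 1 to 5 lower in DEN_KO against DEN_WT. It gave 0 to 3 lower in KO against WT, 11 to 24 higher and 2 to 4 lower in DEN_KO against KO, and 20 to 37 higher and 0 to 1 lower in the interaction. The shares of all tested genes called under quantile normalization, without the filter, without the trend or without a library are not given here. With H3K4me3 regions at least as long as the median, 44 members kept a region in the DEN_KO list and 36 in the DEN_WT list. The share of all genes under this minimum is not given here, so the counts show no excess over it. Regions at members were shorter than those at tested genes in general. The causes were not tested.

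Of 1913 values of named members under alternatives, 10 changed sign, none of them called: Mrpl41 in DEN_WT against WT (0.11), Mrpl44 and Mrpl12 in KO against WT (0.0021 and 0.043), and Mrps22 and Mrpl3 in the interaction (−0.17 and −0.044) under rescaling; Mrpl44 (0.0055), Mrpl12 (0.0018) and Mrpl11 (0.032) in KO against WT without WT replicate 3, Mrpl12 there without WT replicate 1 (0.040), and Mrpl11 in DEN_KO against KO without KO replicate 3 (0.097). Over the fits that leave out a library, the lowest values of these were −0.27 for Mrpl44, −0.22 for Mrpl12 and −0.27 for Mrpl11 in KO against WT, and −0.15 for Mrpl11 in DEN_KO against KO.

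The replicate numbers were not taken as a pairing: in the groups compared, deviations of same-numbered libraries over all tested genes correlated at −0.0957 to 0.12. The replicate block gave 1 higher and 29 lower in DEN_WT against WT, 37 and 2 in DEN_KO against DEN_WT, 0 and 0 in KO against WT, 18 and 4 in DEN_KO against KO, and 26 and 0 in the interaction. The share of all tested genes called with the block is not given here, so these counts stand only beside those of the main fit.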

Other observations

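Under rescaling to the sum without the 10 highest genes, the 3 members higher in DEN_WT against WT were Mrps11, Mrps6 and Mrpl54, with log2 fold changes of 0.99, 0.93 and 0.76. On the deposited scale Mrps6 was at 212, 161 and 254 in DEN_WT and 129, 131 and 166 in WT, with 0.54 ± 0.25 (limma adjusted p = 0.12), and did not pass.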
